A study of Homo sapiens with 4 samples.

Results

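A set of 10 adhesion genes of the immunoglobulin superfamily that neurons and neuroblastoma cells use, NCAM1, NCAM2, L1CAM, CHL1, NRCAM, NFASC, CNTN1, CNTN2, ALCAM and MCAM, were followed in the human neuroblastoma line SK-N-BE(2). They were taken by symbol, 1 row for each, and make up 10 of the 64252 rows of the count table. Expression was measured by RNA sequencing in cells that carried a short hairpin RNA against CDK5RAP3 (shCDK5RAP3, 2 libraries) or a control hairpin (shControl, 2 libraries). CDK5RAP3 is a protein that works with the UFM1 ligase at the endoplasmic reticulum, and the study's title ties it to the degradation of that organelle in neuroblastoma. Both groups are the same cell line with no other treatment named. How many hairpins were used, and their sequences, is not stated in what was read here, nor is whether a clone was picked.

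These molecules sit in the plasma membrane with immunoglobulin and, mostly, fibronectin domains facing outward, and they bind copies of themselves or each other on the next cell. NCAM1 and NCAM2 are the neural cell adhesion molecules, L1CAM, CHL1, NRCAM and NFASC form the L1 family, whose tails bind ankyrins, and CNTN1 and CNTN2 are contactins, held in the membrane by a lipid anchor. ALCAM (CD166) and MCAM (CD146) are related adhesion molecules first known from leukocytes and melanoma. In sympathetic neurons this family takes part in axon growth and bundling, and NCAM1 (CD56) is a common surface marker of neuroblastoma.

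Total counts ranged from 28653689 to 30138393 per library. CDK5RAP3 itself fell to 62.1% of its control level, with 58.5 and 57.1 CPM (counts scaled to library size by TMM) in the shCDK5RAP3 libraries, against 87.4 and 98.6 CPM in the shControl libraries (log2 fold change -0.69 ± 0.08 SE, edgeR adjusted p = 0.000163). All 10 neuroblastoma markers checked were expressed, and their summed level was 2670 and 2772 CPM in the shCDK5RAP3 libraries, against 4255 and 4534 CPM in the shControl libraries. Of these 10 markers 8 were called lower at an edgeR adjusted p under 0.05, against 21.8% of all 18775 genes tested. Fibroblast-type genes summed to 258 and 237 CPM in the shCDK5RAP3 libraries, against 593 and 564 CPM in the shControl libraries. Of these 8 genes 7 were tested and 5 called lower, against the same 21.8%, and FAP was at 0 in every library. Schwann, endothelial, leukocyte and epithelial markers each summed to under 9 CPM in every library, and SOX10, FOXD3, CD3E, ITGAM and CDH1 were at 0. In a bulk sample, fewer cells of a type and less RNA per cell cannot be told apart, and the part of these marker levels in the results that follow was not tested. The labels do not state whether replicates come from separate cultures, so each p-value measures the spread between these libraries, which may be technical.

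Of the 10 genes, 5 fell in the shCDK5RAP3 libraries, 1 rose, 3 did not pass the test and 1 was too low to test. ALCAM, L1CAM and CNTN2 fell by more than 2-fold and CNTN1 and NCAM2 by less, NFASC rose, and NCAM1, NRCAM and MCAM had log2 fold changes between -0.03 and 0.08. Among all 18775 genes tested, 21.8% were called lower and 19.7% higher, or 41.5% in either direction, at an edgeR adjusted p under 0.05, so that the 5 of 9 called lower stand above the background share and the 1 of 9 called higher does not. No test of these shares was made, as the genes were chosen with earlier results known. At least a 2-fold fall was called for 3 of the 9 tested genes and for 7.29% of all tested genes. The median log2 fold change of the 9 was -0.65, against 0.00 over all tested genes, and their median absolute change was 0.65, against 0.37. The 9 tested genes had at least 28 counts in each library, so none entered the test through 1 group alone. All 6 called genes, and none of the other 3, had groups that did not overlap, which held for 71.4% of all tested genes. The 5 falls were called under each of the 14 other settings and omissions of a library that were run.

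**Figure D1:**
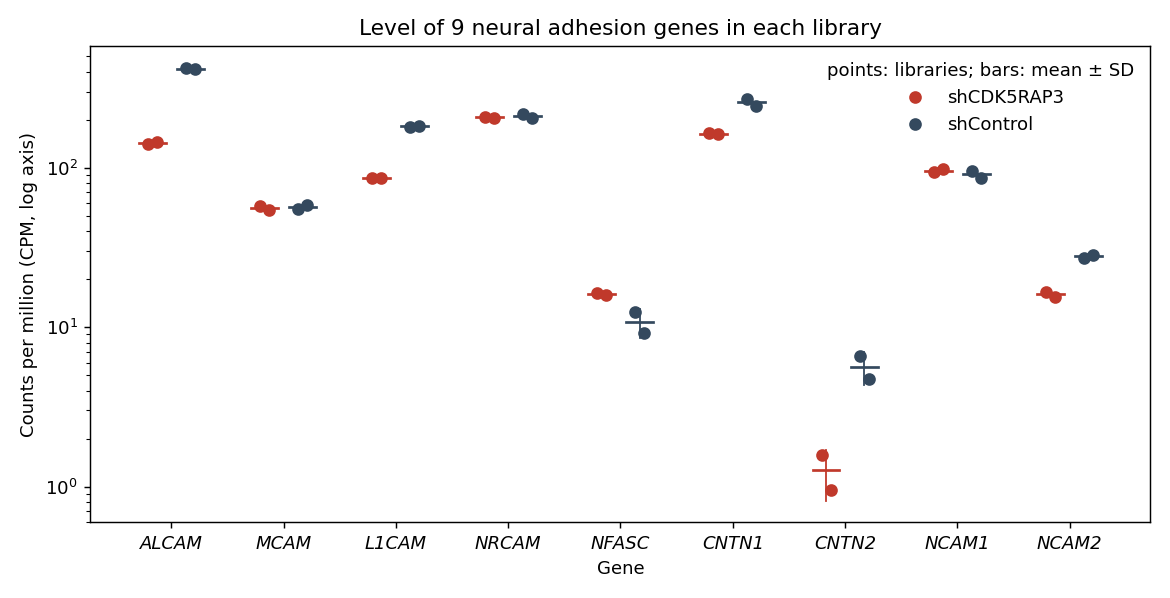
CPM of 9 adhesion genes (log axis) in the 2 shCDK5RAP3 and the 2 shControl libraries, where points are libraries and bars give the mean and SD of each group. The groups are clear of each other for ALCAM, L1CAM, CNTN1, CNTN2, NCAM2 and NFASC and overlap for MCAM, NRCAM and NCAM1; CHL1, at 0 in 3 of 4 libraries, is not drawn.

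ALCAM carried the largest loss of transcript. It is a homophilic adhesion molecule that also binds CD6 on T cells, and it lies at chr3:105366909-105576900 on the plus strand (ENSG00000170017, GRCh38). It had 4043 and 4291 counts in the shCDK5RAP3 libraries, against 12255 and 12060 counts in the shControl libraries. Both shCDK5RAP3 libraries stood far below both shControl libraries, and libraries of 1 group were close to each other. In scaled values this was 143 ± 2.43 CPM in shCDK5RAP3 cells and 419 ± 6.21 CPM in shControl cells (SD, n = 2 each), a fall to 34.2% of control (log2 fold change -1.55 ± 0.06 SE, edgeR adjusted p = 6.56e-07). ALCAM is also made by fibroblasts and other cell types, and the fibroblast-type sum given above fell with it. That sum comes from a single cell line and is uneven. LUM had 75.7 CPM in shCDK5RAP3 cells and 175 CPM in shControl cells (log2 fold change -1.21), and PDGFRB 43.1 and 215 CPM (-2.32). DCN (-1.73) and PDGFRA (-1.14) were called lower as well. COL1A1 fell less, with 31.6 CPM in shCDK5RAP3 cells and 38.3 CPM in shControl cells (-0.28, edgeR adjusted p = 0.0498). COL3A1, with 71.9 and 83.8 CPM, was not called (-0.22, edgeR adjusted p = 0.0647). COL1A2 had 5 and 6 counts in the shCDK5RAP3 libraries, against 19 and 15 in the shControl libraries, and FAP had 0. The part of these genes or of any cell type in the change of ALCAM was not tested.

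MCAM, a receptor for laminin chains that marks melanoma, endothelial cells and pericytes, did not pass. It had 1641 and 1605 counts in the shCDK5RAP3 libraries, against 1589 and 1697 counts in the shControl libraries, and in CPM the groups overlapped, with 1 shCDK5RAP3 library between the controls and the other just below both. The means were 55.9 ± 2.28 CPM in shCDK5RAP3 cells and 56.7 ± 2.44 CPM in shControl cells (SD, n = 2 each; log2 fold change -0.02 ± 0.08 SE, edgeR adjusted p = 0.854). Its annotated span overlaps CBL on the opposite strand, which fell with a log2 fold change of -0.39. Whether counting used the strand is not stated in what was read here, so reads of MCAM and CBL may not be fully separated. The ratio of ALCAM to MCAM counts, which no scaling between libraries can alter, was 2.46 and 2.67 in the shCDK5RAP3 libraries, against 7.71 and 7.11 in the shControl libraries.

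RefSeq promoter windows of ALCAM and MCAM, whose transcripts differed in response, and of L1CAM, the gene with the next clearest fall, are shown to let them be compared. Each line gives the 250 bases upstream of the RefSeq start (GRCh38.p14; for L1CAM the start farthest upstream in the table), 5′ to 3′ on the gene's strand, with the GC box GGGCGG, searched on both strands, in capitals. The windows are chr3:105366659-105366908 on the plus strand for ALCAM, chrX:153876015-153876264 on the minus strand for L1CAM and chr11:119317131-119317380 on the minus strand for MCAM.
ALCAM: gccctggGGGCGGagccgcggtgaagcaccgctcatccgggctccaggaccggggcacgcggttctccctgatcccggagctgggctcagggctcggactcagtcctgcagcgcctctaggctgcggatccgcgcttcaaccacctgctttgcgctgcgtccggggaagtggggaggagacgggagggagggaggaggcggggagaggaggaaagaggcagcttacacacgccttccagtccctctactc
L1CAM: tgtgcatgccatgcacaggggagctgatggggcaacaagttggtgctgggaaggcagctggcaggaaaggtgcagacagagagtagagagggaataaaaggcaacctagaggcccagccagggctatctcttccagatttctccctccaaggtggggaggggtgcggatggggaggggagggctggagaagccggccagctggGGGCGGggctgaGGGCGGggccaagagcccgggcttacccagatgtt
MCAM: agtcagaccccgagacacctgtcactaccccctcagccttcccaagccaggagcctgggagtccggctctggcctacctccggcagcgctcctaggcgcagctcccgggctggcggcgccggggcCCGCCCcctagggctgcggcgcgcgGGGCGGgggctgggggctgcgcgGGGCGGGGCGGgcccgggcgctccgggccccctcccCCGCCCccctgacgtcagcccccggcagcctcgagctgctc
ALCAM had 1 match, L1CAM 2 and MCAM 5, including a pair that overlap, and the windows were 68.8%, 62.8% and 79.6% G or C. RefSeq windows were at hand for 9 of the 10 genes, with NCAM1 the one without, and 17 windows in all. A GC box was found in 7 of these 17 windows, against 42.6% of the 35116 windows of all genes. The E-box CACGTG, a sequence that MYC-type factors bind, was in 0 of the 17 windows, against 6.34% of all windows. The E-box CAGCTG was in 3 of them, in CNTN1 and L1CAM, against 14% of all windows. GC boxes thus occurred in windows of genes that fell (ALCAM, L1CAM, CNTN2), of the gene that rose (NFASC) and of those that did not pass (NRCAM, MCAM).

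Within the L1 family the members went different ways. L1CAM, the founding member, which guides axon growth and is shed from many tumours, lies at chrX:153861514-153886174 (ENSG00000198910). It had 2468 and 2548 counts in the shCDK5RAP3 libraries, against 5241 and 5327 counts in the shControl libraries. The groups were wide apart, with 86.3 ± 0.223 CPM in shCDK5RAP3 cells and 182 ± 1.47 CPM in shControl cells (SD, n = 2 each), a fall to 47.4% of control (log2 fold change -1.08 ± 0.06 SE, edgeR adjusted p = 4.37e-06). NRCAM, its relative at nodes of Ranvier and in growing axons, had 5959 and 6093 counts in the shCDK5RAP3 libraries, against 6303 and 6006 counts in the shControl libraries. The counts overlapped, and the means were 207 ± 1.95 CPM in shCDK5RAP3 cells and 212 ± 7.98 CPM in shControl cells (SD, n = 2 each; log2 fold change -0.03 ± 0.06 SE, edgeR adjusted p = 0.695). L1CAM therefore had 0.414 and 0.418 counts for each NRCAM count in the shCDK5RAP3 libraries, against 0.832 and 0.887 in the shControl libraries. With 2 libraries against 2 an exact permutation test of such a ratio cannot give a two-sided p below 0.333, so the ratios are given as descriptions.

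NFASC (neurofascin), which gathers sodium channels at the axon initial segment and at nodes, was the member that rose. It had 470 counts in each of the shCDK5RAP3 libraries, against 359 and 269 counts in the shControl libraries, and lies at chr1:204828651-205022822 on the plus strand (ENSG00000163531). Both shCDK5RAP3 libraries were above both shControl libraries, but the controls differed from each other by almost as much as the nearer one did from the shCDK5RAP3 libraries. The means were 16.2 ± 0.407 CPM in shCDK5RAP3 cells and 10.8 ± 2.23 CPM in shControl cells (SD, n = 2 each), a 1.49-fold rise (log2 fold change 0.58 ± 0.16 SE, edgeR adjusted p = 0.0169). This call was lost without shCDK5RAP3 replicate 1 (edgeR adjusted p = 0.112), without shCDK5RAP3 replicate 2 (0.123), without shControl replicate 2 (0.0664) and with no filter on low counts (0.133). CHL1, the close homolog of L1CAM, had 0 and 4 counts in the shCDK5RAP3 libraries, against 0 and 0 in the shControl libraries. A count of 0 allows up to 3 counts, or 0.105 CPM in the first of the shCDK5RAP3 libraries and 0.104 and 0.103 CPM in the shControl libraries, by counting error alone, so CHL1 was not detectable at this depth in 3 of 4 libraries and was not tested.

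The 7-base word AACACCT was looked up in 3′ UTRs with results of these data already known, and among the 10 genes it occurs in the longest annotated 3′ UTR of ALCAM and of NFASC, one that fell and one that rose. The sites (GENCODE 29, GRCh38, both plus strand) are chr3:105576334-105576360 in ALCAM and chr1:205018630-205018656 in NFASC, printed with the word in capitals because the transcripts that carry them moved in opposite directions.
ALCAM: aaatttttaAACACCTgctctccacaa
NFASC: atttcctccAACACCTgcttggatact
The sites are identical over 10 bases, the word and the 3 bases after it. The word was in the longest 3′ UTR of 9.6% of the 19133 genes with one annotated, and the related word ACACCTA in 6.7% of them and in none of the 10. Over the 1477 tested genes that hold AACACCT the median log2 fold change was -0.26, with 43.3% called lower and 13.2% called higher. Over all 18775 tested genes 21.8% were called lower and 19.7% higher. Of these 13696 were protein-coding, so this is not a like set. The shares called among tested genes with a 3′ UTR that lacks the word were not computed. Over the tested genes with a 3′ UTR that lacks the word the median was 0.00. Genes with and without the word were not matched for 3′ UTR length or base content. L1CAM, CNTN1, CNTN2 and NCAM2 fell with neither word in the longest annotated 3′ UTR. The part of the word in the change of ALCAM was not tested.

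Both contactins fell. CNTN1, a lipid-anchored partner of neurofascin and of the CASPR protein CNTNAP1 beside nodes, lies at chr12:40692442-41072418 (ENSG00000018236). It had 4729 and 4793 counts in the shCDK5RAP3 libraries, against 7826 and 7126 counts in the shControl libraries. The groups did not overlap, and the means were 164 ± 2.56 CPM in shCDK5RAP3 cells and 258 ± 18.0 CPM in shControl cells (SD, n = 2 each), a fall to 63.5% of control (log2 fold change -0.65 ± 0.07 SE, edgeR adjusted p = 0.000106). CNTN2 (TAG-1), which pairs with CNTNAP2 and marks young axons, was scarce and had the steepest fold change of the 10. It had 45 and 28 counts in the shCDK5RAP3 libraries, against 191 and 137 counts in the shControl libraries. All of these are low counts, with 1.26 ± 0.445 CPM in shCDK5RAP3 cells and 5.66 ± 1.34 CPM in shControl cells (SD, n = 2 each), a fall to 22.3% of control (log2 fold change -2.16 ± 0.30 SE, edgeR adjusted p = 0.000512). When a library was left out its log2 fold change ranged from -2.56 to -1.84. CNTN2 begins 20.1 kb beyond the end of NFASC on the same strand of chromosome 1, so these neighbours moved in opposite directions. CNTN2 had 0.0957 and 0.0596 counts for each NFASC count in the shCDK5RAP3 libraries, against 0.532 and 0.509 in the shControl libraries.

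The NCAM genes differed as well. NCAM1, the carrier of polysialic acid on embryonic neurons and neuroblastoma cells, had 2695 and 2890 counts in the shCDK5RAP3 libraries, against 2750 and 2522 counts in the shControl libraries. The groups overlapped, at 96.0 ± 2.33 CPM in shCDK5RAP3 cells and 90.9 ± 5.88 CPM in shControl cells (SD, n = 2 each; log2 fold change 0.08 ± 0.07 SE, edgeR adjusted p = 0.401). NCAM2, its relative in olfactory axons, had 476 and 458 counts in the shCDK5RAP3 libraries, against 786 and 829 counts in the shControl libraries. It fell to 57.7% of control with no overlap, at 16.1 ± 0.842 CPM in shCDK5RAP3 cells and 27.8 ± 0.952 CPM in shControl cells (SD, n = 2 each; log2 fold change -0.79 ± 0.10 SE, edgeR adjusted p = 0.000352). NCAM2 had 0.177 and 0.158 counts for each NCAM1 count in the shCDK5RAP3 libraries, against 0.286 and 0.329 in the shControl libraries. NCAM1 shares its locus with antisense genes. Of these AP000802.1 had 29 and 24 counts in the shCDK5RAP3 libraries, against 60 and 59 in the shControl libraries. It was called lower (log2 fold change -1.16, edgeR adjusted p = 0.0145). As the strand setting is not stated, reads of NCAM1 and of these antisense genes may not be fully separated.

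**Figure D2:**
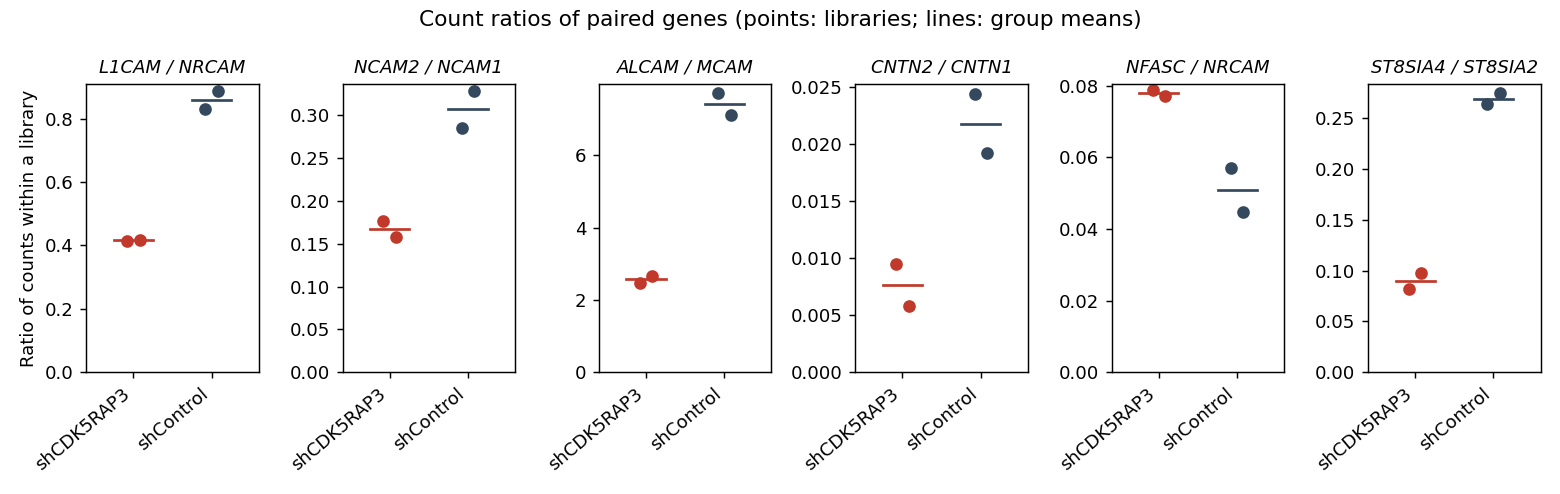
Ratio of the counts of 6 gene pairs within each library, each on its own axis from 0, where points are libraries and lines are group means. The shCDK5RAP3 libraries lie below the shControl libraries for L1CAM over NRCAM, NCAM2 over NCAM1, ALCAM over MCAM, CNTN2 over CNTN1 and ST8SIA4 over ST8SIA2, and above them for NFASC over NRCAM.

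Scaled per length (RPKM, here CPM per kilobase of union exon), the order of the genes differed between the groups. In shCDK5RAP3 cells the levels were 25.3 RPKM for NRCAM, 21.9 for CNTN1, 20.0 for ALCAM, 11.9 for L1CAM, 7.54 for NCAM1, 7.53 for MCAM, 1.92 for NCAM2, 0.76 for NFASC and 0.071 for CNTN2. In shControl cells they were 58.4 RPKM for ALCAM, 34.4 for CNTN1, 25.9 for NRCAM, 25.1 for L1CAM, 7.63 for MCAM, 7.14 for NCAM1, 3.32 for NCAM2, 0.509 for NFASC and 0.318 for CNTN2. ALCAM thus stood at the top of the order in shControl cells and behind NRCAM and CNTN1 in shCDK5RAP3 cells. NCAM1 and MCAM did not differ beyond the spread of their libraries in either group, and in shControl cells the level of NRCAM, at 26.6 and 25.2 RPKM, lay next to that of L1CAM, at 24.9 and 25.2 RPKM. All other neighbours in the order were apart in every library of the group. Summed over the 10 genes the level was 97.2 and 96.5 RPKM in the shCDK5RAP3 libraries, against 166 and 160 RPKM in the shControl libraries, or 59.5% of control. ALCAM made up 20.3% and 20.9% of this sum in the shCDK5RAP3 libraries, against 35.6% and 36.2% in the shControl libraries, and NRCAM made up 26.2% and 26.1% in the shCDK5RAP3 libraries, against 16.1% and 15.8% in the shControl libraries. The union of all annotated exons is longer than any 1 transcript, and it was longest for NFASC and CNTN2, which lowers the RPKM of these genes relative to the rest.

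**Figure D3:**
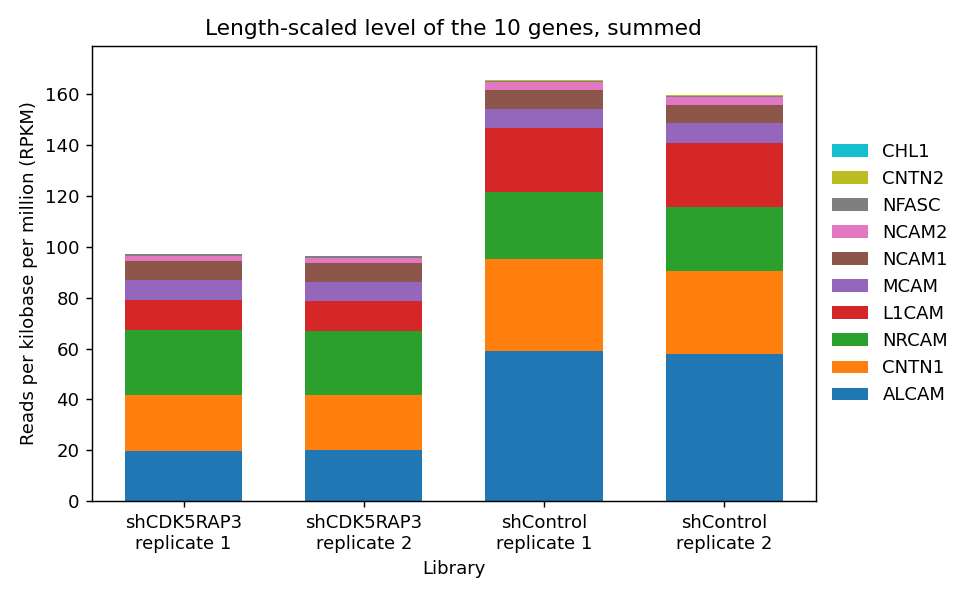
Length-scaled levels (RPKM) of the 10 genes stacked for each library, shCDK5RAP3 libraries first. The stacks reach 97.2 and 96.5 RPKM in the shCDK5RAP3 libraries and 166 and 160 RPKM in the shControl libraries, and the ALCAM segment at the bottom differs most between the groups.

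Of the 10 genes, 7 span at least 100 kb, and their median span was 211 kb, against 33.4 kb for all tested protein-coding genes. Over the 2822 tested protein-coding genes of at least 100 kb the median log2 fold change was -0.15, against -0.03 for all tested protein-coding genes, with 33.6% called lower and 15% called higher. Over all tested genes, which are not all protein-coding, 21.8% were called lower and 19.7% were called higher. Of the 6 long adhesion genes that were tested 3 were called lower and 1 higher. Of the short ones, L1CAM (24.7 kb) and CNTN2 (35.4 kb) were lower and MCAM (13.0 kb) was not past the threshold. The part of gene length in these changes was not tested.

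Genes that act with these molecules were read from 6 lists, of which 68 of 73 genes could be tested. Of these, 33 were lower, 10 were higher and 25 did not pass, with a median log2 fold change of -0.38, against 0.00 over all tested genes. The background shares are those given above, 21.8% lower and 19.7% higher over all tested genes. The 33 of 68 lower stand above that share and the 10 of 68 higher below it. No test of these shares was made, as these lists too were chosen with earlier results of these data known. Among 24 other immunoglobulin adhesion genes 20 were tested, 10 fell and 3 rose (median -0.41). The falls were led by OPCML (-2.54), the nectin-like CADM3 (-2.12), IGSF8 (-1.87), the sidekick SDK1 (-1.59), DSCAML1 (-1.37) and the contactin CNTN4 (-1.09). OPCML, with 7 and 0 counts in the shCDK5RAP3 libraries and 20 and 22 in the shControl libraries, was not called without shCDK5RAP3 replicate 2 (-1.55, edgeR adjusted p = 0.136), without shControl replicate 1 (0.0789) or 2 (0.102) or with DESeq2 (adjusted p = 0.0938), and its log2 fold change without shCDK5RAP3 replicate 1 was -7.41. DSCAML1 was not called without shCDK5RAP3 replicate 2 (edgeR adjusted p = 0.107) and was at -2.01 without shCDK5RAP3 replicate 1. With no filter on low counts OPCML, DSCAML1 and CNTN4 were not called (edgeR adjusted p = 0.249, 0.14 and 0.0653). The contactins CNTN5 and CNTN6 and the gene DSCAM were at 0 in every library, and CNTN3 was too low to test.

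Enzymes that decorate NCAM with sugars went both ways. ST8SIA4 and ST8SIA2 are the polysialyltransferases that build polysialic acid on NCAM1. ST8SIA4 had 192 and 216 counts in the shCDK5RAP3 libraries, against 541 and 477 counts in the shControl libraries, a fall to 39.9% of control (log2 fold change -1.32 ± 0.14 SE, edgeR adjusted p = 0.000128). ST8SIA2 had 2333 and 2222 counts in the shCDK5RAP3 libraries, against 2049 and 1740 counts in the shControl libraries, with groups that did not overlap (log2 fold change 0.26 ± 0.09 SE, edgeR adjusted p = 0.0452). The ST8SIA2 call was lost without shCDK5RAP3 replicate 1 (edgeR adjusted p = 0.278), without shCDK5RAP3 replicate 2 (0.148), without shControl replicate 2 (0.216), with library size alone (0.0704), with no filter (0.237) and with DESeq2 (adjusted p = 0.0564). The ratio of ST8SIA4 to ST8SIA2 counts was 0.0823 and 0.0972 in the shCDK5RAP3 libraries, against 0.264 and 0.274 in the shControl libraries. B3GAT1, which starts the HNK-1 sugar epitope, fell by 0.75 on the log2 scale and ST8SIA3 by 0.74, whereas CHST10 (0.16) and B3GAT2 (-0.07) did not pass.

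Of 14 cytoskeletal linkers 8 fell, 1 rose and 5 did not pass (median -0.56). Doublecortin (DCX), a microtubule protein of migrating neurons that also binds neurofascin, had 527 and 412 counts in the shCDK5RAP3 libraries, against 3488 and 2967 counts in the shControl libraries, a fall to 14.5% of control (log2 fold change -2.78 ± 0.13 SE, edgeR adjusted p = 1.9e-06). Moesin (MSN), an actin linker that L1CAM and ALCAM can engage, had 2648 and 2661 counts in the shCDK5RAP3 libraries, against 10667 and 9704 counts in the shControl libraries, a fall to 26.0% (log2 fold change -1.94 ± 0.07 SE, edgeR adjusted p = 5.21e-07). For each gene both shCDK5RAP3 libraries lay well below both controls. The moesin relatives differed from it, with ezrin (EZR) at -0.11 and not past the threshold and radixin (RDX) higher by 0.22. The neuronal ankyrins ANK2 (-0.77) and ANK3 (-0.63), which hold L1 family tails, fell, while the common spectrins SPTAN1 (0.12) and SPTBN1 (-0.04) did not pass. DLG3 (-0.82), SPTBN4 (-0.60) and DLG1 (-0.20) fell as well. Without shCDK5RAP3 replicate 2 the calls of ANK2 (edgeR adjusted p = 0.0543), ANK3 (0.0742), DLG3 (0.0509), RDX (0.156), SPTBN4 (0.162) and DLG1 (0.196) were lost. Without shCDK5RAP3 replicate 1 those of DLG3 (0.0561), RDX (0.121), SPTBN4 (0.124) and DLG1 (0.253) were lost. Without shControl replicate 1 SPTBN4 (0.0817) and DLG1 (0.211), and without shControl replicate 2 RDX (0.076) and SPTBN4 (0.126), were not called. With no filter on low counts ANK2 (0.0516), ANK3 (0.0664), DLG3 (0.0557), RDX (0.0722), SPTBN4 (0.0713) and DLG1 (0.13) were not called. Upper-quartile factors also ended the calls of SPTBN4 (0.0547) and DLG1 (0.0824), RLE factors that of DLG1 (0.0564), and DESeq2 both (adjusted p = 0.199 and 0.0944).

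Membrane and signalling partners had 6 falls and 1 rise among 12 tested of 13. CNTNAP2, the partner of CNTN2, fell by 1.13 on the log2 scale and CNTNAP1, the partner of CNTN1, by 0.33. The kinase FYN (-0.41), which acts downstream of NCAM1, the prion protein PRNP (-0.65), a ligand of NCAM1 in the membrane, the phosphatase PTPRA (-0.44) and the receptor FGFR1 (-0.23) were lower too. GFRA1, the GDNF co-receptor through which NCAM1 can bind GDNF, rose 3.46-fold from a low level, with 71 and 107 counts in the shCDK5RAP3 libraries, against 36 and 15 counts in the shControl libraries (log2 fold change 1.79 ± 0.41 SE, edgeR adjusted p = 0.00705). The calls of CNTNAP1 (edgeR adjusted p = 0.0918) and FGFR1 (0.107) were lost without shCDK5RAP3 replicate 1, and those of CNTNAP1 (0.18), FGFR1 (0.27), PTPRA (0.146) and GFRA1 (0.12) without shCDK5RAP3 replicate 2. CNTNAP1 (0.116) and FGFR1 (0.122) were not called without shControl replicate 1 either, and with no filter on low counts CNTNAP1 (0.0887), FGFR1 (0.138), PTPRA (0.127) and GFRA1 (0.113) were not called. FGFR1 was not called with upper-quartile factors (0.0548) and CNTNAP1 was not called with DESeq2 (adjusted p = 0.0502). GFRA1 had a log2 fold change of 2.55 without shControl replicate 1. GAP43, SRC, NRP1, CNTNAP4 and PTPRG did not pass.

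Among 9 extracellular ligands 4 fell and 1 rose. The heparan sulfate proteoglycan AGRN (agrin) had 268 and 274 counts in the shCDK5RAP3 libraries, against 684 and 707 counts in the shControl libraries (log2 fold change -1.36 ± 0.11 SE, edgeR adjusted p = 3.23e-05). TNR, a matrix ligand of contactins, fell by 1.94 on the log2 scale at low counts, with 14 and 10 in the shCDK5RAP3 libraries and 50 and 43 in the shControl libraries, and was not called without shCDK5RAP3 replicate 2 (edgeR adjusted p = 0.0513). LAMA4, a laminin chain that MCAM binds, was lower by a log2 fold change of -0.40, BCAN by -0.92, and RELN was higher by 0.43. With shCDK5RAP3 replicate 2 left out LAMA4 (edgeR adjusted p = 0.134), BCAN (0.21) and RELN (0.151) were not called. The same held with shCDK5RAP3 replicate 1 left out for LAMA4 (0.122) and RELN (0.153), with shControl replicate 1 left out for LAMA4 (0.104) and BCAN (0.114), and with shControl replicate 2 left out for BCAN (0.0817) and RELN (0.132). With no filter LAMA4 (0.107), BCAN (0.139) and RELN (0.175) were not called, and BCAN was not called with upper-quartile factors (0.0531) or DESeq2 (adjusted p = 0.186). The growth factors PTN (-0.06) and MDK (0.21) did not pass.

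The proteases that release these molecules from the membrane divided by complex. The sheddases ADAM10 and ADAM17, which cut L1CAM, NCAM1 and ALCAM, had log2 fold changes of 0.25 and 0.46 and both rose, and so did the gamma-secretase subunit APH1A (0.30). The gamma-secretase subunit NCSTN (-0.69) and the aspartyl protease BACE1 (-0.68), which cuts CHL1 and other L1 family members, fell. PSENEN (-0.26) did not pass. ADAM10 was not called without shCDK5RAP3 replicate 1 (edgeR adjusted p = 0.128) or 2 (0.0733), and APH1A likewise (0.0544 and 0.13). With no filter on low counts ADAM10 (0.0551), ADAM17 (0.054) and APH1A (0.0775) were not called.

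**Figure D4:**
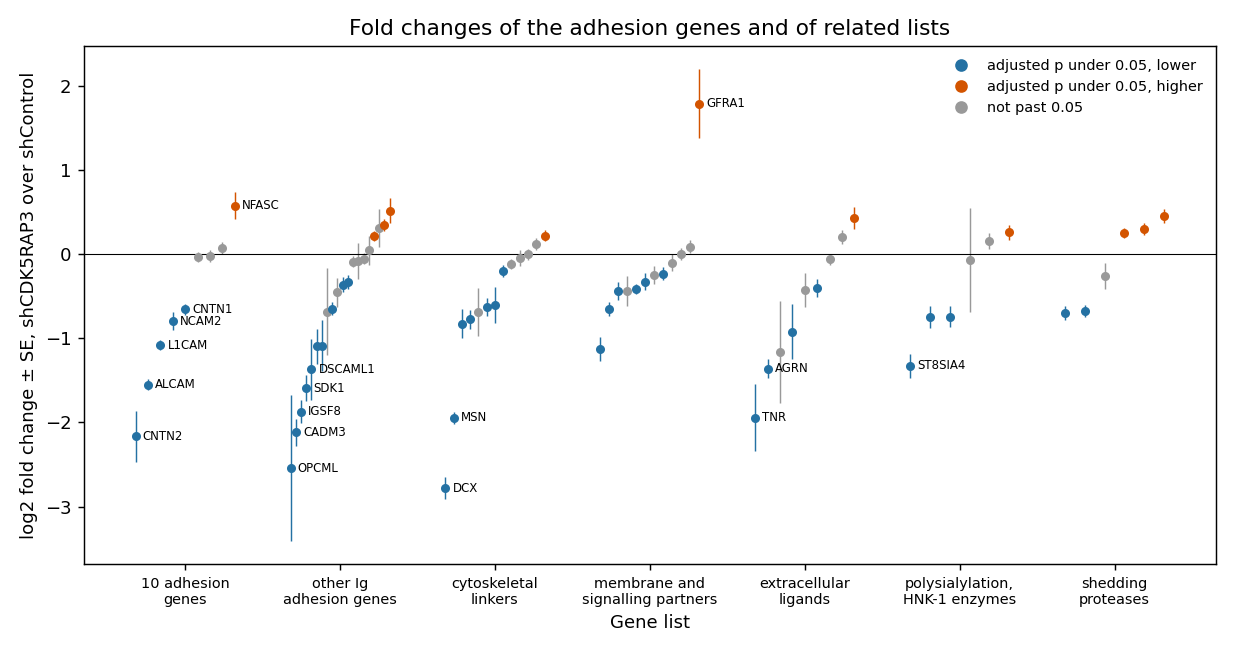
Log2 fold change with standard error (shCDK5RAP3 over shControl, edgeR) of tested genes in the adhesion set and in 6 related lists, blue for lower and orange for higher at an adjusted p under 0.05 and grey for the rest. In the adhesion set 5 genes lie below 0, from CNTN1 at -0.65 to CNTN2 at -2.16, 3 lie near 0 and NFASC is at 0.58; among the linkers DCX (-2.78) and MSN (-1.94) stand lowest.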

How the data were processed

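RNA sequencing of TRIzol-extracted total RNA (Illumina TruSeq kit, per the labels' protocols) gave 4 libraries of SK-N-BE(2) cells, 2 per group, grouped by sample title. The authors deposited whole-number counts per Ensembl gene, not scaled between libraries. HISAT2 2.2.0, StringTie and hg38 are named, without role, per the submitters' processing notes; annotation, strand setting and the treatment of multi-mapping reads are not stated in the sources read. Each column name equals a sample's description.

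Symbols came from a gene name table and GENCODE 29 (56591 of 64252 identifiers matched); where a symbol had several rows, the row with the highest mean count was used. The test was edgeR 4.0.16 in R 4.3.3 (TMM, default filter by group, quasi-likelihood, no replicate block), and p-values over the 18775 genes tested were adjusted by Benjamini-Hochberg and called at 0.05. Standard errors are the log2 fold change over the root of the F statistic. CPM uses TMM-scaled library sizes, and RPKM divides CPM by union exon length. Floors of 3 counts cover counting error only. The fit was also run on simulated counts with the same relative spread for every gene and few changed genes. That setting is simpler than these data, so it does not show how the fit behaves on them.

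The members and lists were chosen with earlier results of these data known. Named genes are the 10 members, CDK5RAP3, genes of the linker, partner and sugar-enzyme lists, and up to 6 called genes with the largest change of each other list. GC box, E-box and 3′ UTR word searches were chosen after the results were known. Some genes of the lists are counted but not reported by name here.

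The alternatives left out each library once, lowered the threshold to 0.01, summed rows that share a symbol, added a replicate block or robust fitting, replaced edgeR by DESeq2 1.42.0, dropped the filter or required a CPM of 1 in 2 libraries, and scaled by RLE, upper-quartile or library size.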

Additional observations from a re-analysis of the deposited data

How the results depend on the processing

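The falls of ALCAM, L1CAM, CNTN1, CNTN2 and NCAM2 were called under all 14 alternatives. Of the 10 genes, 5 or 6 were called when a library was left out. The rise of NFASC was called with each other scaling, the stricter filter, DESeq2, the robust fit, the replicate block, rows summed by symbol and without shControl replicate 1, and in no other setting. NRCAM and MCAM, not called in any setting, changed sign: NRCAM ranged from -0.0749 to 0.0016 when a library was left out, and MCAM from -0.067 to 0.0209, with 0.0109 under upper-quartile factors. With no filter 4488 of all genes and 19 of the related genes were called, and at a threshold of 0.01 27 related genes, where more genes tested and a lower threshold are part of the alternatives. Leaving out a library gave 3752 to 7329 calls over all genes and 18 to 39 over the related genes, lowest without shCDK5RAP3 replicate 2, with the lone library of a group assumed to vary like the others. Equal replicate numbers share no stated origin (their deviations correlated at 0.117 over 15508 genes); the replicate block gave 9148 calls over all genes, 6 of the 10 and 49 related genes. Scaling choices moved the median of all genes by at most 0.03 (log2). Of 53 genes followed, 23 kept their direction and call throughout. Low counts limit the precision for CHL1, OPCML, CNTN2 and TNR, among other scarce genes.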
